A study of Homo sapiens with 8 samples.

Results

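This account follows 10 immediate early genes, EGR1, EGR2, EGR3, NR4A1, NR4A2, NR4A3, IER2, IER3, IER5 and ARC, in MDA-MB-231 cells given a triphenylphosphonium salt and UV-A light. The genes were picked by symbol, and all 10 were found among the 45341 gene identifiers shared by both sets of deposited tables. MDA-MB-231 is an established line of human breast cancer cells that lack hormone receptors and HER2 amplification (triple-negative), and poly-A RNA was sequenced. Cells were held for 24 h with 10 µM 1-SO, (5-oxo-2-dibenzothienylmethyl)triphenylphosphonium, with 10 µM 1-S, the same cation without the oxo group, or with vehicle, which was 1% DMSO. For each treatment a well was then irradiated (30 min of UV-A, 8 bulbs, 325 to 375 nm) or kept dark, on separate plates, so that plate and light cannot be told apart. Round 1, with cells at passage 8, held vehicle dark, vehicle UV-A, 1-SO dark and 1-SO UV-A. Round 2, with cells at passage 32 to 34, held dark and irradiated vehicle, and dark and irradiated 1-S. Each of the 8 libraries is thus 1 well of a group and round: vehicle groups had n = 2 libraries and each compound group n = 1. Compound, round and passage cannot be told apart in any comparison of 1-SO with 1-S. No label says how long after irradiation the cells were lysed.

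Immediate early genes are transcribed within minutes of a stimulus, without new protein synthesis, by factors already present in the cell such as serum response factor with its ETS partners, and CREB. Their mRNAs are mostly short-lived, and many of their products are themselves transcription factors that carry the signal to later genes. EGR1, EGR2 and EGR3 encode zinc finger factors, NR4A1, NR4A2 and NR4A3 encode orphan nuclear receptors, IER2, IER3 and IER5 encode small regulatory proteins, and ARC encodes a capsid-forming protein best known at synapses.

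The promoters of EGR1, EGR2 and NR4A3 are shown because they were the windows, among those searched, that held a letter pattern of serum response factor or CREB. RefSeq promoter windows of 300 bases (GRCh38.p14, 250 bases before to 50 after a start) were searched for 6 of the 10 genes, with 9 windows. IER3 and NR4A2 had no window, and those of EGR3 and ARC were left out of the search and are not reported here. Capitals mark the CArG box, the pattern of serum response factor, and TGACGT or its reverse complement ACGTCA, a core of the cAMP response element; both strands were searched.
EGR1 promoter, chr5:138465229-138465528, plus strand: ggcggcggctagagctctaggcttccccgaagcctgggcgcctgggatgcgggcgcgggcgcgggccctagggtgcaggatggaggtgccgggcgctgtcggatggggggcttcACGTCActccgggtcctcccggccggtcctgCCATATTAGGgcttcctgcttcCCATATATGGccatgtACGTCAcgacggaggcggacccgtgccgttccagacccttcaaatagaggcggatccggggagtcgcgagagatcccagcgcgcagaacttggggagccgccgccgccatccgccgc
EGR2 promoter, chr10:62816317-62816616, minus strand: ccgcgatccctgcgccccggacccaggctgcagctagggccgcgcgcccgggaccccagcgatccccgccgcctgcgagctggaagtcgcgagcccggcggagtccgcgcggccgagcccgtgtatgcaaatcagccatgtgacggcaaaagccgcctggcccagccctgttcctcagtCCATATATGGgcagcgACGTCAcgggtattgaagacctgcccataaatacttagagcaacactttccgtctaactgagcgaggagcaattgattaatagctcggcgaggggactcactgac
NR4A3 promoter, chr9:99821635-99821934, plus strand: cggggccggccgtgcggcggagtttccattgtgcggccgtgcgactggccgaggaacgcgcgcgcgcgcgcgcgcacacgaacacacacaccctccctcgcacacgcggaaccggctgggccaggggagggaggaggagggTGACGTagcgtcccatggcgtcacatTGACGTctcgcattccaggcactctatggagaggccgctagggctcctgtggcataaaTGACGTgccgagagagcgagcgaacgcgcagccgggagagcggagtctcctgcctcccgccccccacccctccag
The EGR1 window held 2 CArG boxes, CCATATTAGG and CCATATATGG, and 2 copies of ACGTCA. The EGR2 window held 1 CArG box, CCATATATGG, and 1 copy of ACGTCA, and the other EGR2 windows held neither. The NR4A3 window held 3 copies of TGACGT and no CArG box. Of the 35116 promoters in the table, 1.29% held a CArG box and 7.98% held TGACGT, a pattern that was added after the windows were seen. The full palindrome TGACGTCA (1.85% of promoters), the EGR patterns GCGTGGGCG (0.795%) and GCGGGGGCG (5.07%), the NR4A pattern AAAGGTCA (1.22%) and TATAAA (11.5%) had no match in these windows. A match is a run of letters and not a binding site.

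In the genome (GRCh38, with GENCODE v29 gene models) EGR1 lies at chr5:138465490-138469315 and IER5 at chr1:181088712-181092899, both on the plus strand. IER3 lies at chr6:30743199-30744554 on the minus strand and NR4A1 at chr12:52022832-52059507 on the plus strand. The median span of the 10 was 5.069 kb, against 33.09 kb for the protein-coding genes tested, and the median number of exons 2.5 against 9. The IER genes, ARC, EGR1 and EGR3 spanned 1.356 to 5.644 kb, whereas EGR2 (107.9 kb), NR4A3 (45.04 kb) and NR4A1 (36.68 kb) lay above the median of the genes tested. The EGR2 span is that of the whole gene model, which reaches far upstream of the EGR2 promoter window shown above. A transcript that begins at that window spans much less. EGR3, IER2, IER3 and NR4A1 each overlap a gene on the opposite strand. No source used here says whether the counting used strand, so reads of those 4 cannot be told apart from reads of their antisense partners.

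The libraries held 15.8 to 22.6 M reads, and a count of 0 would allow up to 0.133 to 0.19 CPM (counts scaled by library size), from the 3 reads that a count of 0 allows. Of 7 markers expected in this line, 6 were present, among them VIM at 219 to 317 and EGFR at 40.8 to 90.2 FPKM (reads scaled by gene length and library size), while SPARC reached at most 0.158. ESR1, PGR and CDH1, which mark luminal or epithelial breast cells, were at most 0.0504, 0.14 and 0.0369 FPKM, while ERBB2 (9.78 to 29.2), EPCAM (2.25 to 5.58) and GATA3 (2.46 to 3.47), listed with them, were detected in every library. DCN and PTPRC, of fibroblasts and blood cells, were at most 0 and 0.116 FPKM. The mitochondrially encoded share of reads was 0.9295% in the 1-SO UV-A library, 1.772% in 1-S dark and 1.395% in 1-S UV-A, against 2.385 to 3.02% in the other 5. The libraries with the lower share are thus also those in which most of these genes were highest; the part of this shift in the results was not tested. In bulk RNA, fewer cells that express a gene and less RNA per cell cannot be told apart.

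All tests came from 1 fit over the 12696 genes that reached 1 FPKM in 2 or more libraries, by edgeR's quasi-likelihood test with Benjamini-Hochberg adjustment, and a gene was called at an adjusted p under 0.05. The spread in that fit is the difference between the rounds in the light response of vehicle cells, moderated across genes, so the p-values hold nothing about wells of the same compound. No source used here says whether the vehicle libraries came from independent cultures beyond the round. EGR2 and EGR3 reached the minimum only in the 1-S libraries, NR4A1 only in those and in 1-SO UV-A, and NR4A3 in none. Their entry therefore hangs on the libraries in which they are high, and all 10 genes were also fitted with no minimum, over 27603 genes. In that fit the spread was pooled across genes, so its p-values leave out a gene's own difference between the rounds. The authors' gene lengths differed between rounds for 9 of the 10 genes, all but EGR1, so FPKM are to be compared within a round. Every statement below that a library was the highest or lowest of the 8 also holds in CPM.

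**Figure D1:**
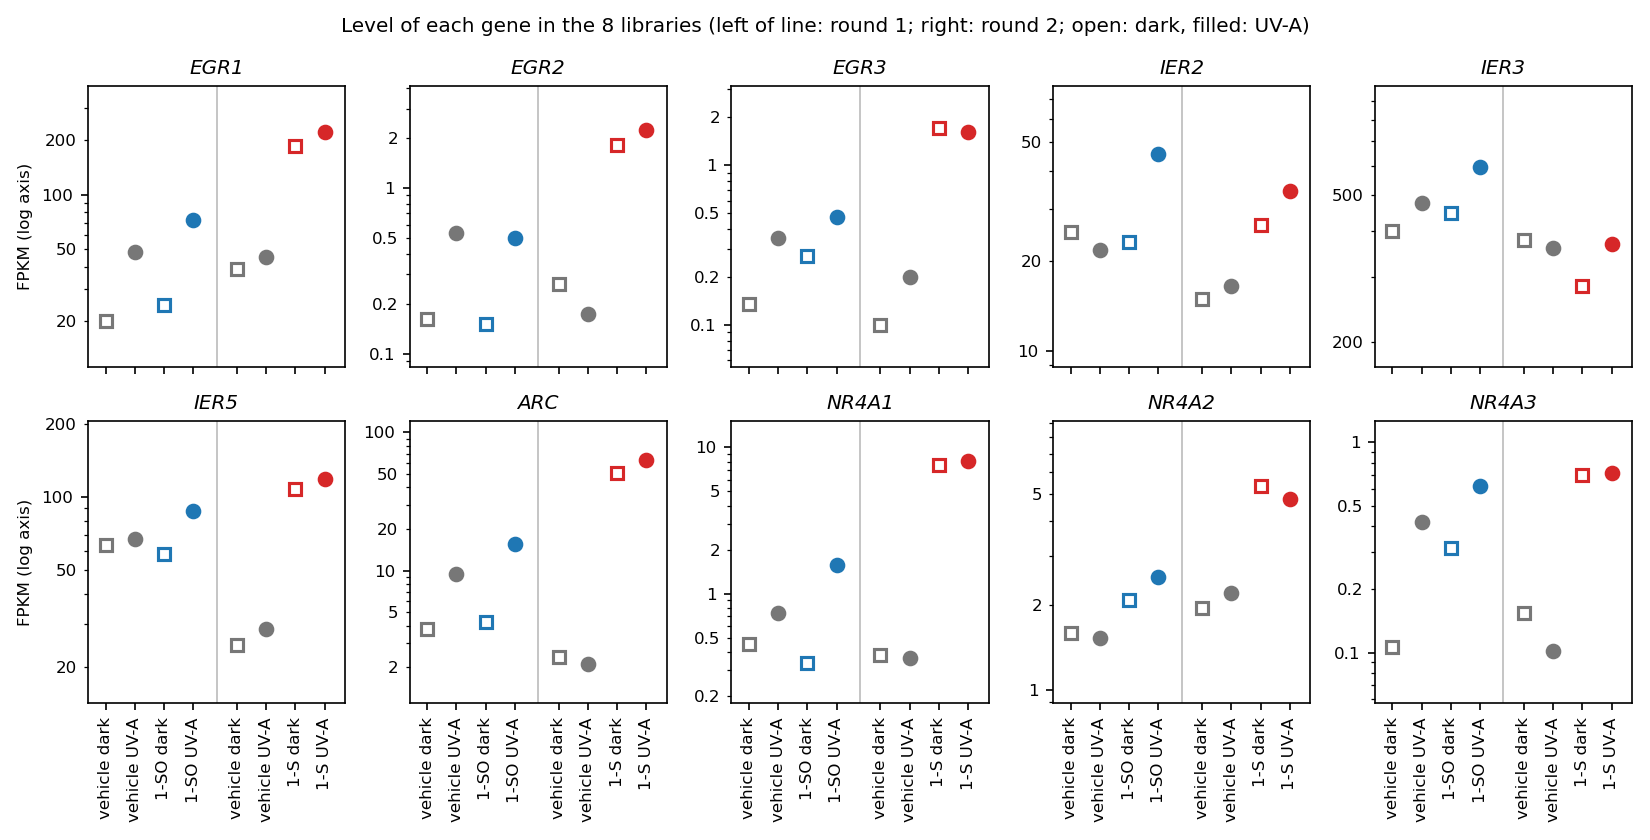
Level of each of the 10 genes in the 8 libraries, as FPKM on a log axis that differs between panels; open squares are dark and filled circles UV-A libraries, grey for vehicle, blue for 1-SO and red for 1-S, with round 1 left and round 2 right of the line. The 1-S libraries stand above both vehicle libraries of their round in 9 panels, IER3 being the exception.

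The 1-S libraries carried far more mRNA of most of these genes than the vehicle libraries of their round, dark or irradiated. ARC and NR4A1 stood 19.9- to 30.1-fold above vehicle, the EGR genes 4.78- to 17.0-fold, IER5 and NR4A3 4.15- to 7.01-fold, and NR4A2 and IER2 1.77- to 2.74-fold. IER3 was the exception. In the dark 8 of the 9 genes tested were called higher and 0 lower, where 15.9% of all genes tested were called higher and 30.9% in either direction. Under UV-A the same count was 8 of 9, against 13.8% higher and 27.5% in either direction. With no minimum on levels 9 of 10 were called in both, against 6.67 and 6.06% of genes called higher.

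EGR1 is the best studied EGR factor, induced by growth factors, stress and radiation. In round 2 its level was 38.9 FPKM with dark vehicle, 45.6 with irradiated vehicle, 186 in 1-S dark and 221 in 1-S UV-A; in round 1 it was 20.1 in vehicle dark, 48.2 in vehicle UV-A, 24.5 in 1-SO dark and 72.9 in 1-SO UV-A. Both 1-S libraries lay above every other library. The 1-S dark library held 4.78-fold the EGR1 CPM of its vehicle (95% counting interval 4.59 to 4.99), and the 1-S UV-A library 4.85-fold (4.67 to 5.05). Counting intervals such as these cover counting error only, since each side of a ratio is 1 library. Reads of 1 molecule cannot be recognised as such, so the intervals may be too narrow even for that error. The fitted log2 fold change of EGR1 was 2.43 ± 0.22 (SE; edgeR adjusted p = 2.37e-09) in the dark and 1.96 ± 0.23 (adjusted p = 2.91e-07) under UV-A.

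EGR2, a factor known from myelination and lymphocytes, was a low transcript. It had 22 reads (0.264 FPKM) with dark vehicle and 14 (0.174) with irradiated vehicle of round 2, against 146 (1.81) in 1-S dark and 158 (2.25) in 1-S UV-A. In round 1 EGR2 had 9 reads in vehicle dark, 25 in vehicle UV-A, 8 in 1-SO dark and 33 in 1-SO UV-A, or 0.161, 0.533, 0.152 and 0.501 FPKM. No round 1 library came near the 1-S libraries. The fitted log2 fold change of EGR2 with 1-S was 3.20 ± 0.54 in the dark (edgeR adjusted p = 6.09e-05) and 3.03 ± 0.56 under UV-A (adjusted p = 0.000204). EGR3, which often follows EGR1 after a stimulus, had 11 reads (0.1 FPKM) with dark vehicle, 21 (0.199) with irradiated vehicle, 181 (1.71) in 1-S dark and 150 (1.62) in 1-S UV-A of round 2. Its round 1 libraries had 11 reads in vehicle dark, 24 in vehicle UV-A, 21 in 1-SO dark and 46 in 1-SO UV-A, or 0.135, 0.35, 0.272 and 0.478 FPKM. As for EGR2, the 1-S libraries were the highest, at a few FPKM at most. Its fitted log2 fold change with 1-S was 4.12 ± 0.52 in the dark (edgeR adjusted p = 9.28e-07) and 2.89 ± 0.50 under UV-A (adjusted p = 7.76e-05). EGR2 and EGR3 entered this fit only through the 1-S libraries, so these p-values are not independent of that choice. With no minimum on levels EGR2 was 3.12 ± 0.47 in the dark and 2.98 ± 0.50 under UV-A. EGR3 was then 4.04 ± 0.49 and 2.84 ± 0.47.

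Among the nuclear receptors NR4A1, also called NUR77 and tied to apoptosis and metabolism, stood furthest apart. It was 0.383 FPKM with dark vehicle and 0.365 with irradiated vehicle of round 2, against 7.62 in 1-S dark and 8.04 in 1-S UV-A. In round 1 NR4A1 was 0.451 in vehicle dark, 0.732 in vehicle UV-A, 0.337 in 1-SO dark and 1.58 in 1-SO UV-A. The 1-S values did not overlap those of any other library. The fold over its own vehicle library was 19.9 in the dark (counting interval 15.5 to 26.1) and 22.0 under UV-A (16.9 to 29.1). The fitted log2 fold change of NR4A1 was 4.43 ± 0.30 in the dark (edgeR adjusted p = 7.39e-12) and 4.23 ± 0.30 under UV-A (adjusted p = 3.13e-11). NR4A1 entered this fit only through the 1-S and 1-SO UV-A libraries. With no minimum on levels it was 4.35 ± 0.28 in the dark and 4.17 ± 0.29 under UV-A.

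NR4A2 (NURR1), known for its need in dopamine neurons, differed much less. Its level in round 2 was 1.95 FPKM with dark vehicle, 2.21 with irradiated vehicle, 5.35 in 1-S dark and 4.82 in 1-S UV-A, and in round 1 it was 1.59, 1.53, 2.09 and 2.53 in vehicle dark, vehicle UV-A, 1-SO dark and 1-SO UV-A. Here too the 1-S libraries were the highest. NR4A2 rose with 1-S by 1.34 ± 0.30 on the log2 scale in the dark (edgeR adjusted p = 0.00133) and by 1.13 ± 0.30 under UV-A (adjusted p = 0.00556), but DESeq2 called neither. NR4A3 (NOR1), the third receptor of this family, was below 1 FPKM throughout, with 22 reads (0.154 FPKM) with dark vehicle, 14 (0.102) with irradiated vehicle, 97 (0.703) in 1-S dark and 86 (0.714) in 1-S UV-A of round 2. In round 1 NR4A3 had 10 reads in vehicle dark, 33 in vehicle UV-A, 28 in 1-SO dark and 69 in 1-SO UV-A, or 0.107, 0.419, 0.316 and 0.623 FPKM. In CPM, which gene length does not enter, NR4A3 was 3.11 in 1-SO UV-A against 4.44 in 1-S dark and 4.51 in 1-S UV-A. In the fit with no minimum the log2 fold change of NR4A3 with 1-S was 2.61 ± 0.50 in the dark (edgeR adjusted p = 6.04e-06) and 2.01 ± 0.53 under UV-A (adjusted p = 0.00229).

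Of the IER genes, IER5, a regulator of heat shock factor activity, was the one most raised. In round 2 IER5 had 24.6 FPKM with dark vehicle, 28.6 with irradiated vehicle, 108 in 1-S dark and 119 in 1-S UV-A; its round 1 levels were 63.7 in vehicle dark, 67.5 in vehicle UV-A, 58.1 in 1-SO dark and 88.0 in 1-SO UV-A. The length used for IER5 was 2340 bases in round 1 and 4188 in round 2, and in CPM the vehicle libraries were at 149 and 158 in round 1 and 103 and 120 in round 2. The 1-S libraries, at 453 and 497 CPM, lay above all others. Its fitted log2 fold change was 2.04 ± 0.19 in the dark (edgeR adjusted p = 4.07e-09) and 2.04 ± 0.18 under UV-A (adjusted p = 3.18e-09). IER2, a nuclear protein linked to cell motility, was 15.0 FPKM with dark vehicle, 16.5 with irradiated vehicle, 26.5 in 1-S dark and 34.3 in 1-S UV-A. In round 1 IER2 was 25.1, 21.8, 23.2 and 45.7 in vehicle dark, vehicle UV-A, 1-SO dark and 1-SO UV-A, so that its highest library was 1-SO UV-A. IER2 rose with 1-S by 0.67 ± 0.19 on the log2 scale in the dark (edgeR adjusted p = 0.00894; not called by DESeq2) and by 1.09 ± 0.19 under UV-A (adjusted p = 7.52e-05).

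IER3 (IEX-1), a stress-induced regulator of cell survival, was the most abundant of the 10 in every library and kept a narrow range. It was 378 FPKM with dark vehicle, 361 with irradiated vehicle, 284 in 1-S dark and 369 in 1-S UV-A, and in round 1 399.6 in vehicle dark, 478 in vehicle UV-A, 447 in 1-SO dark and 595 in 1-SO UV-A. The 1-S dark library was the lowest of the 8. The fitted log2 fold change of IER3 with 1-S was -0.39 (95% interval -0.84 to 0.05; edgeR adjusted p = 0.17) in the dark and -0.09 (-0.54 to 0.35; adjusted p = 0.791) under UV-A. The IER3 intervals with 1-S thus ended below the log2 estimate of IER2 under the same light, which has its own error, and the genes were not tested against each other.

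ARC, an activity-regulated gene of neurons that also responds to growth factors elsewhere, had the largest 1-S difference of the 10. Its level was 2.37 FPKM with dark vehicle, 2.11 with irradiated vehicle, 50.9 in 1-S dark and 63.3 in 1-S UV-A of round 2, and 3.79, 9.38, 4.26 and 15.5 in vehicle dark, vehicle UV-A, 1-SO dark and 1-SO UV-A of round 1. ARC rose from 160 and 137 reads in vehicle to 3327 and 3611 with 1-S. The folds over the vehicle library of the same light were 21.5 (counting interval 18.3 to 25.3) in the dark and 30.1 (25.3 to 35.9) under UV-A. The fitted ARC log2 fold change was 4.75 ± 0.26 in the dark (edgeR adjusted p = 9.61e-14) and 4.42 ± 0.27 under UV-A (adjusted p = 1.29e-12). The fit has TMM scaling and 1 light response of vehicle cells for both rounds, so its ARC folds, 26.9 and 21.5, are not those of the libraries. In what the authors' deposited tables give, EGR1, EGR2, EGR3, IER5, ARC, NR4A1 and NR4A3 had an adjusted p under 0.05 for 1-S in the dark and for 1-S with UV-A, each against dark vehicle or, for the latter, also against irradiated vehicle. IER2, IER3 and NR4A2 did not in any of them. Over all genes 850 did for 1-S in the dark, 866 for 1-S with UV-A against dark vehicle and 886 against irradiated vehicle. Each of these comparisons set 1 library against 1, so its p-values hold no measured spread between wells.

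**Figure D2:**
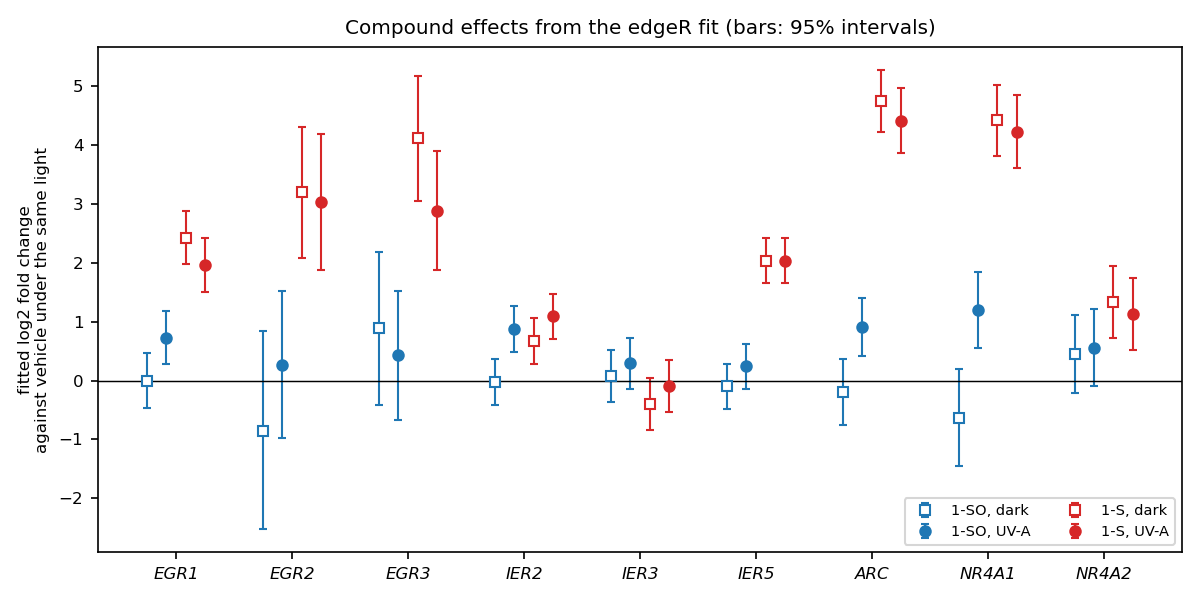
Fitted log2 fold change of each compound against vehicle under the same light, with 95% intervals from edgeR; blue is 1-SO, red 1-S, open squares dark and filled circles UV-A. With 1-S the intervals of all genes shown except IER3 lie above 0 in both light conditions, while with 1-SO in the dark every interval spans 0.

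With 1-SO in the dark none of the 9 genes tested was called, and 0% of all genes were: edgeR had 26 genes and 0 of these at an unadjusted p under 0.05, DESeq2 called 0 genes and limma called 2, neither of them among the 10. The 26 genes are far fewer than a p under 0.05 would give if nothing differed. The edgeR test was thus cautious here, and a gene not called may still differ. EGR1 was 1.22-fold and ARC 1.12-fold the vehicle library in CPM, and NR4A1 0.748-fold. The fitted log2 changes were 0.00 (95% interval -0.47 to 0.47) for EGR1, -0.19 (-0.76 to 0.37) for ARC, -0.63 (-1.46 to 0.19) for NR4A1, -0.03 (-0.42 to 0.36) for IER2 and -0.10 (-0.49 to 0.29) for IER5. EGR2 (-0.85, from -2.53 to 0.84) and EGR3 (0.89, from -0.41 to 2.19), with few reads, had wider intervals. The upper end of the interval lay below the estimate with 1-S in the dark for each of these 7 genes. That estimate has its own error, and the direct test of the difference, given below, did not call IER2. NR4A3 had 28 reads against 10, a 2.96-fold ratio (counting interval 1.40 to 6.83), and it was not called in the fit with no minimum. The levels in this comparison rest on 1 library of 1-SO dark.

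1-SO with UV-A differed from irradiated vehicle for 4 of the 9 genes tested, all higher: NR4A1, ARC, IER2 and EGR1, where 4.47% of all genes were called higher and 11.5% in either direction. With no minimum on levels 4 of 10 were called higher, where 581 of 27603 genes were. NR4A1 had 1.58 FPKM against 0.732 in irradiated vehicle, ARC 15.5 against 9.38, IER2 45.7 against 21.8 and EGR1 72.9 against 48.2. Their fitted log2 fold changes were 1.20 ± 0.31 for NR4A1 (edgeR adjusted p = 0.0125), 0.91 ± 0.24 for ARC (adjusted p = 0.0131), 0.88 ± 0.19 for IER2 (adjusted p = 0.00264) and 0.73 ± 0.22 for EGR1 (adjusted p = 0.0258). DESeq2 called only IER2 of these. NR4A2 (0.55, adjusted p = 0.29), EGR3 (0.43), IER3 (0.30), EGR2 (0.27) and IER5 (0.25) were above 0 and not called, and NR4A3 was 0.93 ± 0.50 (adjusted p = 0.412) in the fit with no minimum.

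Within the 1-SO cells themselves NR4A1, ARC, EGR1 and IER2 rose with UV-A, 4 of 9, against 5.57% of all genes higher and 14.8% in either direction. With no minimum on levels 4 of 10 were called higher, where 712 of 27603 genes were. NR4A1 rose by 2.10 ± 0.38 on the log2 scale (edgeR adjusted p = 0.000301), ARC by 1.74 ± 0.28 (adjusted p = 7.24e-05), EGR1 by 1.45 ± 0.25 (adjusted p = 0.000156) and IER2 by 0.85 ± 0.20 (adjusted p = 0.00499). In CPM the irradiated 1-SO library held 4.69-fold the NR4A1 of the dark one (counting interval 3.15 to 7.22), 3.64-fold the ARC and 2.98-fold the EGR1. This comparison shares the irradiated 1-SO library with the one before, and DESeq2 called EGR1 and NR4A1 but not ARC and IER2. EGR2 had a similar ratio, 3.30, from 8 and 33 reads and was not called (1.58 ± 0.78, adjusted p = 0.176). IER5 (0.47, adjusted p = 0.116), EGR3 (0.68), IER3 (0.29) and NR4A2 (0.15) were not called either. Irradiated 1-SO cells and dark vehicle cells differ in light and compound at once: there the authors' deposited table gave an adjusted p of 0.013562 for EGR1, 0.0049352 for ARC and 0.01939 for NR4A3, and 0.0767 for NR4A1. For 1-SO with UV-A against irradiated vehicle the authors' deposited table gave an adjusted p of 1 for all 10 genes, the 4 called here included. Over all genes the authors had 406 at an adjusted p under 0.05 against dark vehicle and 62 against irradiated vehicle. Both of these comparisons set 1 library against 1.

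With UV-A alone the vehicle cells of the rounds gave different ratios. In round 1 irradiated vehicle cells held 2.40-fold the EGR1 CPM of dark ones (counting interval 2.23 to 2.57), 2.48-fold the ARC, 3.30-fold the EGR2, 2.59-fold the EGR3 and 3.92-fold the NR4A3, so 5 of the 10 passed 2-fold upward, where 1.88% of genes did. In round 2 none of the 10 did, where 1.21% of genes did: EGR1 was 1.17-fold (1.11 to 1.23), ARC 0.888-fold (0.702 to 1.12), and EGR2 and NR4A3 both 0.66-fold. The counting intervals of the rounds did not overlap for EGR1, ARC, EGR2, NR4A3 and IER3, which were higher in round 1, nor for IER2, at 0.868-fold (0.8 to 0.942) in round 1 and 1.10-fold (1.01 to 1.20) in round 2. These intervals narrow with read depth, so that IER3 is included at 1.20- and 0.954-fold. The share of all genes with such intervals was not worked out, so whether the 10 differ from other genes in this is not known. Over both rounds the fit called 0 of 9 genes and 0% of all genes, with 348 genes and 3 of these at an unadjusted p under 0.05: EGR1 at 0.71 ± 0.17 (edgeR adjusted p = 0.437), ARC at 0.63 ± 0.21 (adjusted p = 0.951) and EGR3 at 1.15 ± 0.49 (adjusted p = 1). The 348 genes too are fewer than a p under 0.05 would give if nothing differed. DESeq2 called 0 genes. EGR1 was called in the fit with no minimum (0.72 ± 0.15, edgeR adjusted p = 0.00589), where 0.0326% of genes were called higher. The spread in that fit is pooled across genes, so the gap between the rounds in EGR1 itself does not weigh on that p-value. Within a round the dark and irradiated vehicle cells were at the same passage. The rounds differ in passage, so for the difference between their light responses round and passage cannot be told apart.

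In cells holding 1-S, none of the 9 genes was called for UV-A, and 0% of all genes were called, with 307 genes and 0 of these at an unadjusted p under 0.05 and 0 called by DESeq2. Here too 307 genes are fewer than a p under 0.05 would give if nothing differed. The levels were already high in the dark. NR4A1 was 7.62 and 8.04 FPKM, EGR1 186 and 221 and ARC 50.9 and 63.3, dark and irradiated. The intervals of the fitted log2 change were -0.49 to 0.63 for NR4A1, -0.21 to 0.83 for ARC and -0.24 to 0.73 for EGR1. The light response of the 1-SO cells exceeded that of the 1-S cells for 3 of 9 genes, against 1.69% of all genes higher and 4.36% in either direction: NR4A1 by 2.03 ± 0.47 (edgeR adjusted p = 0.0116), ARC by 1.43 ± 0.37 (adjusted p = 0.0254) and EGR1 by 1.21 ± 0.34 (adjusted p = 0.0397) on the log2 scale. DESeq2 called none of these differences. With no minimum on levels 3 of 10 were called higher, where 242 of 27603 genes were. The vehicle ratios of the rounds lay in the same order for all 3, by the folds given above for EGR1 and ARC and with 1.62 and 0.955 for NR4A1, so compound and round cannot be told apart.

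**Figure D3:**
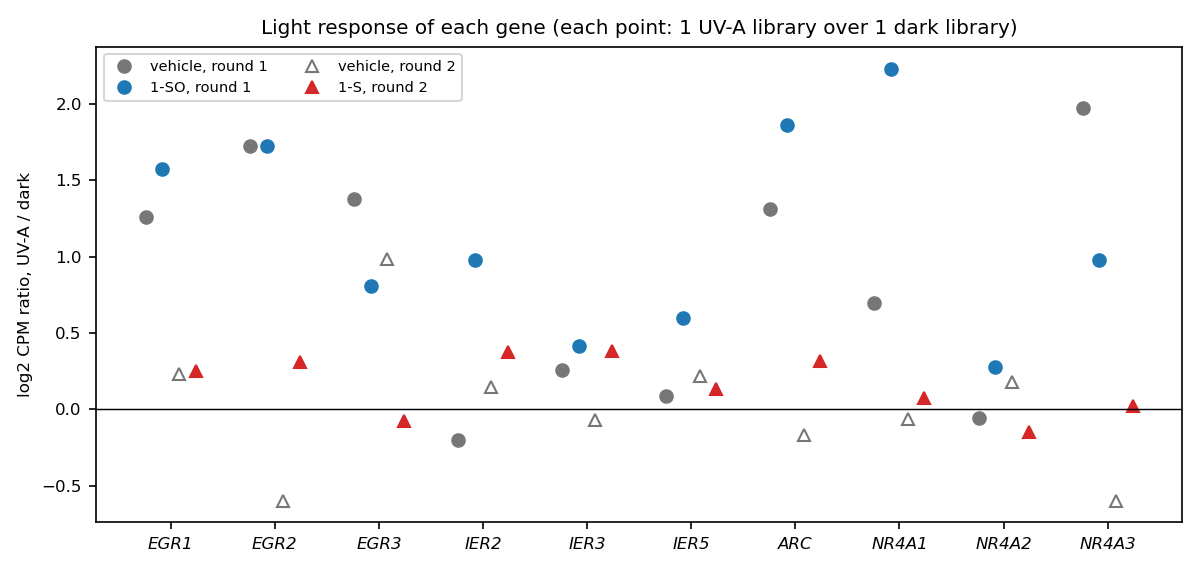
Log2 ratio of the CPM of each gene in the UV-A library to that in the dark library, 1 ratio per point, for vehicle cells of each round (grey, round 1 filled circles, round 2 open triangles), 1-SO cells (blue) and 1-S cells (red). The round 1 points of EGR1, EGR2 and ARC lie above 1 on this scale with vehicle and with 1-SO, while no point of round 2 does; NR4A1 reaches 4.69-fold with 1-SO.

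The compounds, which differ by the oxo group of 1-SO, were compared at the same dose and time, 1 pair at each light condition, as the difference of their effects over vehicle. In the dark 6 of 9 genes were lower with 1-SO, against 8.78% of all genes lower and 17.2% in either direction. EGR2, EGR3 and NR4A1 were tested only because of the libraries in which they are high. With no minimum on levels 6 of 10 were called lower, where 963 of 27603 genes were. The log2 difference was -5.06 ± 0.45 for NR4A1 (edgeR adjusted p = 7.39e-09), -4.95 ± 0.36 for ARC (adjusted p = 1.36e-10), -4.05 ± 0.88 for EGR2, -3.23 ± 0.72 for EGR3, -2.43 ± 0.30 for EGR1 and -2.14 ± 0.25 for IER5. NR4A2 (-0.88, interval -1.72 to -0.04; adjusted p = 0.14), IER2 (-0.70, -1.22 to -0.19; adjusted p = 0.0534) and IER3 (0.47, -0.1 to 1.05) were not called. DESeq2 did not call EGR2 and EGR3.

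Under UV-A, where the fit uses the same vehicle libraries, 6 of 9 were called lower with 1-SO, against 2.27% of all genes lower and 3.55% in either direction, and their estimates were smaller. With no minimum on levels 6 of 10 were called lower, where 337 of 27603 genes were. The difference was -3.51 ± 0.34 for ARC (edgeR adjusted p = 5.76e-08), -3.03 ± 0.40 for NR4A1 (adjusted p = 1.77e-05), -1.79 ± 0.25 for IER5 (adjusted p = 3.18e-05) and -1.23 ± 0.30 for EGR1 (adjusted p = 0.0167). EGR2 (-2.77 ± 0.77) and EGR3 (-2.47 ± 0.69) each had an adjusted p of 0.0406, and neither was called by DESeq2, limma or with median-of-ratios scaling. IER2 (-0.22, interval -0.73 to 0.3), NR4A2 (-0.58, -1.41 to 0.26) and IER3 (0.39, -0.19 to 0.97) were not called. The IER2 interval leaves out a 2-fold difference, whereas that of NR4A2 does not. Since each compound was run in its own round, structure, round and passage cannot be told apart in these differences. The authors' gene lengths also differ between the rounds, so the gene models used for counting may differ with the compound too. Which genome build served which round is not stated.

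Other immediate early genes were taken as a list of 38, of which 37 were tested. With 1-S in the dark 25 were called higher and 3 lower, where 15.9% of all genes were called higher and 30.9% in either direction, with a median log2 fold change of 1.16 beside 0.00 over all genes tested. FOS, a subunit of the AP-1 factor, rose most, by 4.60 ± 0.21 (edgeR adjusted p = 5.14e-15), from 3.52 to 77.1 FPKM. FOSB, its relative, rose by 3.96 ± 0.31 (adjusted p = 1.73e-10), ATF3, a stress-induced factor, by 3.37 ± 0.23 (adjusted p = 1.01e-11), and PPP1R15A, a phosphatase subunit that reverses eIF2 phosphorylation, by 3.35 ± 0.22 (adjusted p = 5.89e-12). The 3 that fell were DUSP4 (-1.75) and DUSP6 (-1.73), dual-specificity phosphatases, and CYR61 (-0.73), a secreted matrix protein. With UV-A in 1-SO cells 13 were called higher and 3 lower, beside 5.57% of all genes higher and 14.8% in either direction, with a median of 0.43. FOSB rose by 2.37 ± 0.38 (adjusted p = 8.4e-05), PPP1R15A by 2.18 ± 0.25 (adjusted p = 8.78e-07), ZFP36, which degrades AU-rich mRNAs, by 1.74 ± 0.25 (adjusted p = 1.69e-05) and ATF3 by 1.48 ± 0.25 (adjusted p = 0.000173). With 1-SO in the dark 0 were called, with a median of -0.01, and with UV-A in 1-S cells 0, with a median of 0.13.

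**Figure D4:**
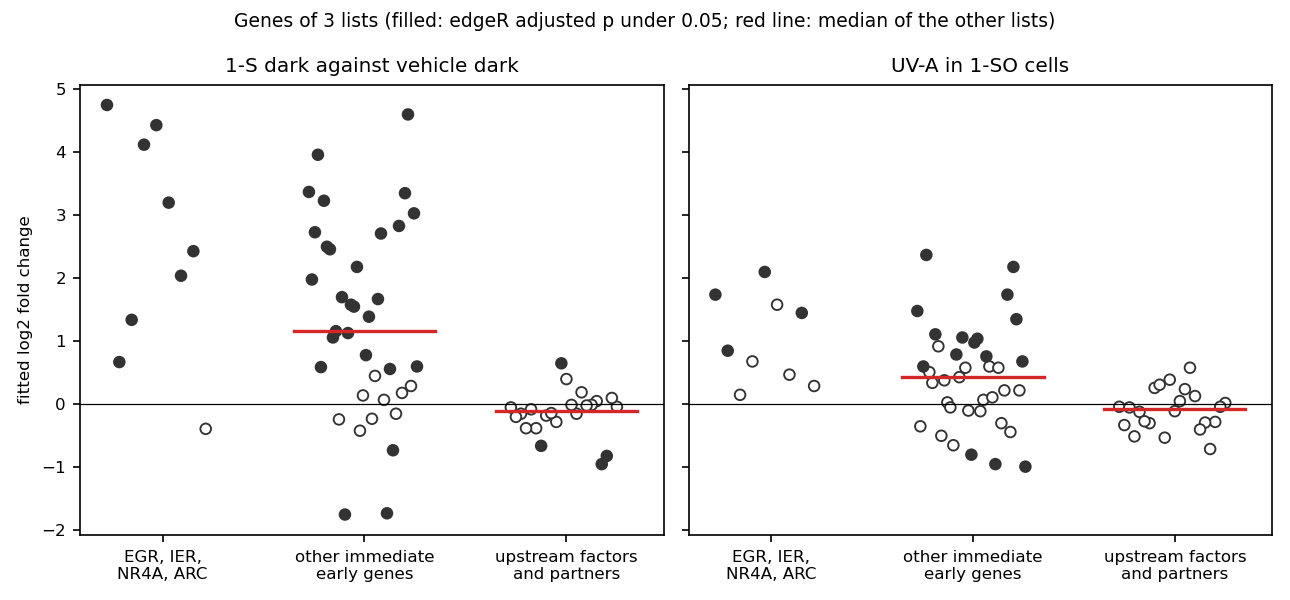
Fitted log2 fold change of each gene of 3 lists (EGR, IER, NR4A and ARC genes, other immediate early genes, upstream factors and partners) for 1-S dark against vehicle dark (left) and UV-A in 1-SO cells (right); filled points had an adjusted p under 0.05 and the red line is the median of each of the other lists. Points of the first 2 lists reach above 4 with 1-S in the dark, where the upstream list stays between -0.95 and 0.65.

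The genes that act upstream or as partners (22 tested: serum response factor and its cofactors, CREB-type factors, signalling kinases, EGR corepressors, NR4A partners and HSF1) were taken as a further list. With 1-S in the dark 1 was called higher and 3 lower, beside 15.9% of all genes higher and 30.9% in either direction, with a median of -0.11. NAB2, a corepressor of EGR factors and itself an EGR1 target, rose by 0.65 ± 0.19 (edgeR adjusted p = 0.0111). Among those that fell were MKL2, a cofactor of serum response factor, by 0.95 on the log2 scale and ELK3, an ETS partner, by 0.66. For 1-SO with UV-A against irradiated vehicle and for UV-A in 1-SO cells 0 were called, beside 11.5% and 14.8% of all genes. For 1-SO in the dark, and for UV-A in vehicle and in 1-S cells, 0 were called, as was the case for all genes.

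Likeness was measured as Pearson's r over the 8 libraries of log2(CPM + 1) centred within round, as a description with libraries and rounds shared by all genes. Among the genes tested, EGR1 was most like CCNL1 (r = 0.9978), VGLL3 (0.997) and TRIM21 (0.9962). NR4A1 was most like GAB2 (0.9986), DNAJB4 (0.9969) and RHBDD2 (0.9965). IER3, whose pattern differed from the others, was most like NUTM2A-AS1 (0.979), AAGAB (0.9789) and ERLEC1 (0.9765). No other member of the 10 was among these nearest genes.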

How the data were processed

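RNA of 8 libraries was compared within 2 rounds whose tables were made separately. Read counts per gene were deposited by the authors as whole numbers, not normalized, per the file headers. The authors' deposited FPKM equal these counts scaled by gene length and library total, as a recalculation found. Tables of the authors' own comparisons, deposited beside them, hold log2 fold changes and p-values (adjustment method: not given in the sources used here). Tools in the submitters' processing notes are edgeR 3.16.5, DESeq2, TopHat, HTSeq 0.6.1, STAR-Fusion and STAR 2.5, with builds hg19 and hg38 and no roles. Printed gene coordinates are GRCh38.

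Counts were fitted with edgeR 4.0.16 (R 4.3.3) in 1 model with terms for each compound group, for light in vehicle cells and for round, and TMM factors within round. That left 1 residual degree of freedom, moderated by 26 prior ones, at a biological coefficient of variation of 12%. In the fit with no minimum the prior ones were infinite in the median, which pools the spread across genes, at a coefficient of 12.5%. P-values were two-sided, adjusted over the 12696 genes tested. Round is the replicate block, since the labels give it as the number shared by libraries run together. Library ratios are CPM without TMM scaling, and were chosen after seeing the data; their median over all genes was 0.126 (log2) for UV-A in 1-SO cells, which adds that shift to each ratio. Alternatives were DESeq2 1.42.0, limma 3.58.1 on log2(FPKM + 1), other scaling and filters, no block and each vehicle library left out. The fit was tested on simulated data. The genes and lists were chosen with earlier results of these data known. All 10 members were named, with the 4 listed genes called with the largest change for UV-A in 1-SO cells and for 1-S in the dark, and the 3 genes most like EGR1, IER3 and NR4A1. DUSP4, DUSP6, CYR61, NAB2, MKL2 and ELK3 were named after their values were seen; a further upstream gene called lower with 1-S in the dark is not reported here.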

Additional observations from a re-analysis of the deposited data

Results flagged for a closer look

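The light response of 1-SO cells exceeded that of 1-S cells in the edgeR test of the difference itself for 3 genes, by 2.03 for NR4A1, 1.43 for ARC and 1.21 for EGR1 on the log2 scale. Of all genes tested 1.69% were called higher there. DESeq2 called none of these differences, and compound, round and passage cannot be told apart in them. In vehicle cells the light ratio lay on opposite sides of 1 in the rounds for 7 of the 10 genes, a difference that was not tested and that passed 2-fold in round 1 for 3 of them. The share of all genes with ratios on opposite sides was not worked out, so the count is not read as particular to the 10. Over all genes the median log2 ratio was near 0 in both rounds, 0.068 and -0.017. In round 2 the counting intervals of EGR2, ARC, NR4A1, NR4A2 and NR4A3 held 1, and that of NR4A2 did so in round 1 too. EGR2 was 3.3-fold in round 1 and 0.66-fold in round 2, from 9 and 25 reads and from 22 and 14. ARC was 2.48-fold and 0.888-fold, and NR4A3 3.92-fold and 0.66-fold, the latter from 10 and 33 reads and from 22 and 14. Of the other 4, NR4A1 was 1.62-fold and 0.955-fold, IER3 1.2-fold and 0.954-fold, IER2 0.868-fold and 1.10-fold, and NR4A2 0.96-fold and 1.13-fold.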

How the results depend on the processing

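Without the replicate block, which leaves the difference between rounds in the spread, 2 of the 90 gene results were called, NR4A1 with 1-S under either light condition, so 1 of 9 genes in each. No gene was then called for 1-SO UV-A against vehicle UV-A, UV-A in 1-SO cells, either comparison of the compounds or the difference of light responses (0 each, from 4, 4, 6, 6 and 3), and of the other immediate early genes 4 were called with 1-S in the dark and 0 with UV-A in 1-SO cells, and of the upstream genes 0. DESeq2 called 1 gene for 1-SO UV-A against vehicle UV-A, 2 for UV-A in 1-SO cells, 2 for 1-SO against 1-S under UV-A, 0 for the difference of light responses and 2 upstream genes with 1-S in the dark. Over all genes DESeq2 called 1590 against 3925 with 1-S in the dark, 1475 against 3487 under UV-A, 474 against 1461 for 1-SO UV-A against vehicle UV-A, 588 against 1876 for UV-A in 1-SO cells, 634 against 2182 for the dark comparison of the compounds, 136 against 451 for their irradiated one, and 108 against 554 for the difference of light responses; with no block these were 18, 15, 0, 0, 0, 0 and 0. The difference of light responses kept 1 call with median-of-ratios scaling and 1 with limma, which also called 1 upstream gene for UV-A in 1-SO cells, and 7 and 2 genes in all for UV-A in vehicle cells and 1-SO in the dark. With no filter on low values 1 gene, EGR1, was called for UV-A in vehicle cells, with 23 genes in all, and 3 genes in all for UV-A in 1-S cells. The cause was not tested.

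Leaving out a vehicle library leaves no residual degree of freedom, so only members past 2-fold, in either direction, were counted. The share of all genes past 2-fold in these fits was not worked out. The counts therefore do not tell whether the members moved more or less than other genes. For UV-A in vehicle cells the count was 1 with all libraries and 0 to 4 without 1: 0 without either round 1 library and 4 without either round 2 library. For 1-SO in the dark it was 0, and 0 to 3, with 3 without vehicle dark replicate 1. For 1-SO UV-A against vehicle UV-A it was 1, and 1 to 4, with 4 without vehicle UV-A replicate 1. With 1-S the count was 7 (7 to 7) in the dark and 8 (7 to 8) under UV-A.

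Values near 0 changed sign. The log2 fold change of EGR1 with 1-SO in the dark was -0.00075 with median-of-ratios scaling, -0.0014 with a mean of at least 10 reads and -0.27 with no replicate block, which also gave 0.18 for IER2, 0.1 for IER5 and 0.6 for ARC there, and 0.28 for IER2 in 1-SO against 1-S under UV-A. IER3 was 0.04 in the difference of light responses by limma. Depth limits EGR2, EGR3 and NR4A3, which had 8 to 69 reads in the libraries without 1-S.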
